A study of Mus musculus with 16 samples.

Results

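Wounds of oil-treated diabetic mice were compared with wounds of untreated wild-type mice on the later of the labelled days, day 14 after wounding. The comparison held 4 of the 16 arrays of the series, 2 labelled db/db + vehicle and 2 labelled WT, and was made on the deposited signals of every probe. The db/db + vehicle group were female C57BLKS/J mice homozygous for the db mutation of the leptin receptor gene, 10 weeks old, whose wounds received sesame oil daily, without hormone. The WT group were female C57BL/6J mice of 10 to 12 weeks whose wounds received nothing. Every mouse carried 2 full-thickness wounds on the shaved back, and RNA came from part of a wound with the intact skin around it, so that each array read a mixture of epidermis, granulation tissue, fat and muscle. The other arrays of the series came from untreated db/db wounds, from db/db wounds given estradiol benzoate in the same oil, and from all 4 groups on labelled day 7. The groups compared differed in strain, in diabetes and obesity, and in the oil at the same time, and these cannot be told apart in the comparison itself. Where the untreated db/db group of labelled day 14 helps to read a gene, its difference from WT and the difference of db/db + vehicle from it are given beside the main value. These comparisons share arrays and are not independent of each other.

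A skin wound is closed by keratinocytes that migrate over a bed of macrophages, fibroblasts and new vessels, and macrophages that first clear debris later take on a repair state marked by arginase and C-type lectins. In db/db mice, which lack the signalling form of the leptin receptor and become obese and hyperglycaemic, wounds close slowly and inflammatory cells stay longer. The C57BLKS/J strain carries, beside C57BL/6 sequence, stretches from DBA/2J, so that it differs from C57BL/6J at many genes that have nothing to do with db.

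Array values below are log2 signals with the 75th percentile of each array set to 0, and a difference is db/db + vehicle minus WT on that scale. A probe entered the test if, in db/db + vehicle or in WT, neither array had it near background, and it was called where limma gave an unadjusted two-sided p below 0.05 and the fold was above 2. Adjusted p are limma's after Benjamini-Hochberg adjustment over all probes tested. Where a fold is given as at least some value, the probe was well above background on no array of 1 group. Such a probe entered the test only through the other group. The adjusted p beside it is that of the fitted difference, which uses the dim signals, and not of the bound. With 2 arrays in each group, a rank or permutation test of 1 gene could not give an exact p under 0.333. The p therefore rest on the spread shared by all 16 arrays. Lack of overlap between the groups is given below as a description of the arrays and not as a test. The labels name biological replicates without saying whether each array was a separate mouse.

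Between 74.6% and 79.0% of the probes of the 4 arrays were well above background, and no spot was saturated. The WT arrays were less alike than the db/db + vehicle arrays, since 11.8% of the probes differed by more than 2-fold between the WT replicates and 4.50% between the db/db + vehicle replicates. WT replicate 2 was dim, with a 75th percentile of 1091 against 2383 to 2435 on the other 3 arrays. Both WT arrays and db/db + vehicle replicate 2 lay on 1 slide and db/db + vehicle replicate 1 on another, so that values without the latter are values within a slide. The label of the day is in doubt: of 39 fold changes of db/db and WT wounds that were listed by day for single genes alongside these arrays, 0 came within 1% of the value from the arrays of the same labelled day and 39 within 1% of that from the other labelled day. The labelled days are used here as they stand, and each labelled day was also a scan day of its own. The skin label held on all 4 arrays. Krt14, the keratin of basal epidermis, read 7.30 and 7.04 in db/db + vehicle and 7.05 and 7.05 in WT, and Col1a1, the main collagen of dermis, read 6.35 and 6.65 against 6.74 and 7.65.

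Of 30520 probes tested, 4083 were called, which is 13.4%. There were 775 probes higher in db/db + vehicle (2.54%) and 3308 lower (10.8%), and 2689 calls held after adjustment (8.81%), 474 of them higher (1.55%) and 2215 lower (7.26%). The median difference over all probes tested was −0.09. The split by direction depended on the scaling: 19% of the calls were higher with the 75th percentile and 37.3% with quantile normalization, under which the median moved to 0.06. Without WT replicate 2, 2660 probes were called and 1024 held after adjustment, and without WT replicate 1, 6633 and 5035. Without db/db + vehicle replicate 1 the adjusted count was 1245 and without db/db + vehicle replicate 2 it was 1490. On labelled day 7, where the same groups share no array with labelled day 14, 29684 probes could be tested. Of these 3054 passed the same thresholds (10.3%), with 1160 up in db/db + vehicle (3.91%) and 1894 down (6.38%). Of the probes called on labelled day 14, 986 were called in the same direction on labelled day 7, which is 24.1% of the former and 32.3% of the latter, and 56 were called in the opposite direction. Among those higher on labelled day 14 the share was 46.6%, and among those lower 18.9%.

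**Figure D1:**
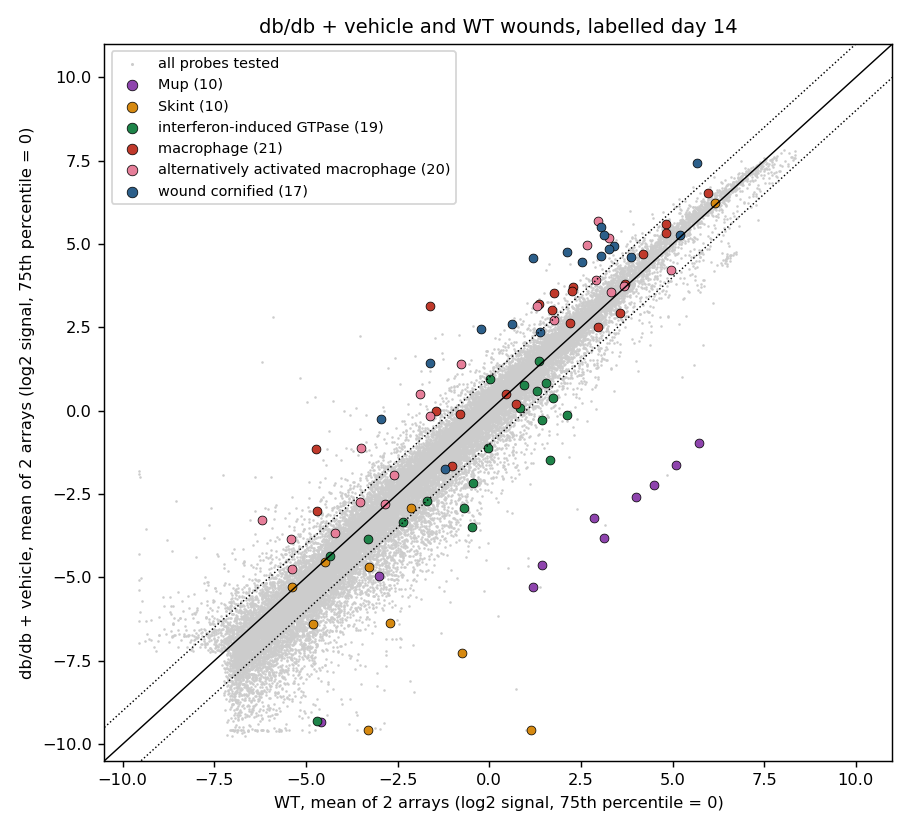
Mean log2 signal of the 2 WT arrays (x axis) and of the 2 db/db + vehicle arrays (y axis) for the 30520 probes tested on labelled day 14, with 6 gene lists in colour, the number of genes tested in brackets, the line of equal signal and dotted lines at a 2-fold difference. The Mup genes and several Skint genes lie far below the line, the interferon-induced GTPases mostly below it, and most macrophage and wound cornified genes above it.

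Macrophage genes were higher in the oil-treated db/db wounds. Of 21 genes tested of a list of 23 macrophage genes, 9 were called higher and 0 lower, with a median difference of 0.68 against −0.09 over all probes. Of all probes, 2.54% were called higher. The median of the list ran from 0.51 without WT replicate 2 to 0.95 without WT replicate 1. The mean level of the list was 2.34 and 2.33 on the db/db + vehicle arrays and 1.49 and 1.23 on the WT arrays. In bulk RNA, more cells of a type and more RNA per cell cannot be told apart. Marco, a scavenger receptor by which macrophages bind bacteria and debris, read 3.59 and 2.70 in db/db + vehicle and −1.61 and −1.60 in WT, a difference of 4.75 (SE 0.66, adjusted p = 0.00238). Cd163, the scavenger receptor for haemoglobin, read −1.08 and −1.23 against −4.44 and −5.01 (difference 3.57, SE 0.71, adjusted p = 0.0109). Neither gene's groups overlapped, and in both genes even the lower db/db + vehicle array was far above the higher WT array. Vsig4, a complement receptor of resident macrophages, differed by 3.67 (adjusted p = 0.00286), and Itgad, an integrin chain of macrophages, by 4.41 (adjusted p = 0.0351). The Itgad value rested on unequal arrays, −3.57 and −0.39 in db/db + vehicle against −6.48 and −6.31 in WT, and was 2.82 without db/db + vehicle replicate 2.

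General myeloid genes differed by smaller amounts. The lysozyme gene Lyz2 was higher by 1.85 (adjusted p = 0.0133), the endotoxin co-receptor gene Cd14 by 1.76 (adjusted p = 0.0237) and Spi1, the transcription factor PU.1, by 1.69 (adjusted p = 0.0105), though by only 0.97 with normexp background correction, where the call was lost. Adgre1, a surface receptor used to mark mouse macrophages, was higher by 1.29 and fell short of a 2-fold difference without WT replicate 2 (0.96). Csf1r, the receptor that macrophages need to survive, read 5.39 and 5.82 against 5.10 and 4.53 and was not called (difference 0.79, SE 0.24, adjusted p = 0.0574), while 1 of its 3 probes was called at 1.61. For Lyz2, Cd14, Spi1, Adgre1 and Csf1r, both db/db + vehicle arrays were above both WT arrays.

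Genes of alternatively activated macrophages followed the same direction, in a comparison where 2.54% of all probes were called higher. Of 20 tested, 9 were called higher and 0 lower, with a median of 1.24, and the number was 5 without WT replicate 2 and 6 without db/db + vehicle replicate 2. Clec10a, the galactose lectin of repair-type macrophages, read 5.45 and 5.93 against 3.37 and 2.55 (difference 2.73, SE 0.38, adjusted p = 0.00225). Arg1, arginase 1, read 5.13 and 4.81 against 2.97 and 2.34 (difference 2.32, SE 0.49, adjusted p = 0.0141). Lyve1, a hyaluronan receptor of both lymphatic vessels and perivascular macrophages, read 0.13 and 0.89 against −1.84 and −1.93 (difference 2.39, SE 0.57, adjusted p = 0.0247). In these 3 genes no db/db + vehicle array came near a WT array. Mrc1, the mannose receptor, read 3.55 and 4.28 against 3.43 and 2.41 and was not called (difference 0.997, SE 0.52, adjusted p = 0.216). The untreated db/db group differed from WT by 1.53 in Clec10a, 1.64 in Arg1, 0.44 in Marco and 1.89 in Cd163.

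Secreted products of macrophages and the enzymes of leukotriene synthesis were among the calls. Lists of chemokines and cytokines held calls in both directions. Of 17 CC chemokines, 3 were called higher and 3 lower, and of 12 CXC chemokines, 1 higher and 2 lower. Of 31 interleukins and cytokines, 3 were called higher and 2 lower. Pf4, the chemokine CXCL4 of platelets and macrophages, read 6.11 and 5.86 against 4.18 and 3.52 (difference 2.13, SE 0.38, adjusted p = 0.0066). Spp1, osteopontin, read 5.13 and 3.68 against 1.83 and 1.42 (difference 2.78, SE 0.50, adjusted p = 0.00718). Ccl2, the main attractant of monocytes, read 4.73 and 4.28 against 3.45 and 2.43 (difference 1.57, SE 0.38, adjusted p = 0.0255). All 3 were higher on both db/db + vehicle arrays than on either WT array. Il10, the anti-inflammatory interleukin, was higher by 1.77 (adjusted p = 0.000856) at −4.60 and −4.37 against −6.32 and −6.20, and with normexp background correction the difference was 0.48 and no longer called. Of 17 genes of prostaglandin and leukotriene synthesis, 4 were called higher and 1 lower, against 2.54% and 10.8% of all probes. Their median was 0.41. Without WT replicate 1, 7 were called higher with a median of 0.73, and without WT replicate 2 the median was 0.08. Among the 4 were Alox5ap, which presents arachidonic acid to 5-lipoxygenase (difference 1.36, adjusted p = 0.00135), 5-lipoxygenase itself, Alox5 (1.44, adjusted p = 0.0157), and Ptger2, a receptor of prostaglandin E2 (1.46, adjusted p = 0.0207). The macrophage genes moved with these products, and their part in them was not tested.

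Granule proteases were among the larger differences. Over all probes tested, 2.54% were called higher and 10.8% lower. Of 26 neutrophil genes, 4 were called higher and 0 lower, with a median of 0.65, while the numbers were 1 and 0 without WT replicate 2, and 1 and 1 both with slide as a fixed block and without db/db + vehicle replicate 1. The largest of the 4 was Ctsg, cathepsin G of neutrophil and mast cell granules, which read 0.31 and −0.33 against −3.82 and −4.10 (difference 3.95, SE 0.46, adjusted p = 0.000981). Camp, the cathelicidin of neutrophil granules, read −3.36 and −3.29 against −2.45 and −3.30 and was not called (adjusted p = 0.729). Of 13 mast cell genes, 2 were called higher (6 without WT replicate 1, 1 without WT replicate 2 or db/db + vehicle replicate 1), and Mcpt2, a mast cell chymase, was one of the most unequal probes of the whole comparison at 1.45 and 1.46 against −6.02 and −6.40, a 202-fold difference (adjusted p = 0.000298). Untreated db/db wounds differed from WT by 8.07 in Mcpt2 and by 3.83 in Ctsg. The granzyme genes Gzme and Gzmn, of which Gzmn was not well above background in WT, were also higher, Gzme by 3.99 (adjusted p = 0.0019) and Gzmn at least 14.2-fold.

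**Figure D2:**
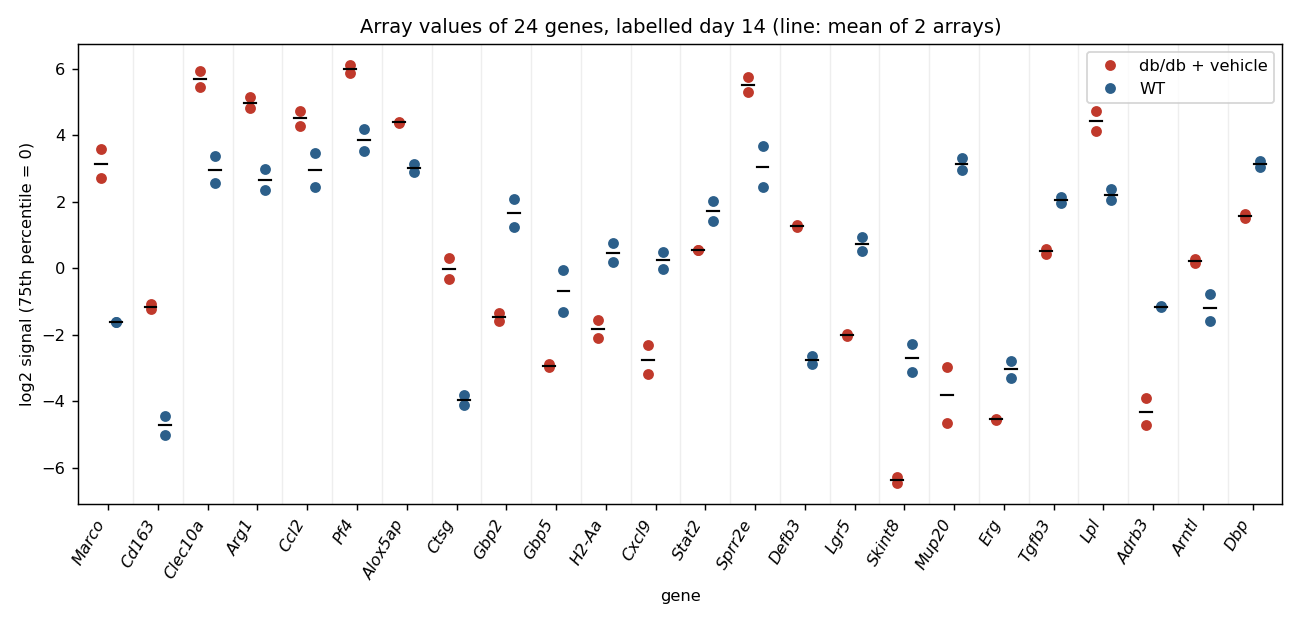
Log2 signal of 24 genes on the 2 db/db + vehicle arrays (red points) and the 2 WT arrays (blue points) of labelled day 14, with the mean of each group as a black line. The groups did not overlap in any gene shown, and for the largest named differences this was a condition of their choice. Marco, Cd163 and Ctsg lay well above WT in db/db + vehicle and Skint8 and Mup20 well below it.

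Genes induced by interferon gamma were lower in the oil-treated db/db wounds. Of 19 interferon-induced GTPases tested, of 21 listed, 9 were called lower, against 10.8% of all probes, and 0 higher, with a median of −1.003. Without WT replicate 2 the number was 5 and the median −0.55, and without WT replicate 1 there were 12 lower and 1 higher. These proteins surround and rupture the vacuoles of microbes inside cells. Promoters of 3 of them are printed because all the called genes of the list were lower. The windows run from 250 bases before to 50 bases after the start of transcription, 5′ to 3′ on the strand of the gene, from RefSeq on GRCm38.p6. Capitals mark matches on either strand to GAAANNGAAA, the core of an interferon-stimulated element, and to TTCNNNGAA, the site shape of STAT proteins, and matches to the motifs did not overlap each other in these windows.
Gbp2, chr3:142620413-142620712, plus strand: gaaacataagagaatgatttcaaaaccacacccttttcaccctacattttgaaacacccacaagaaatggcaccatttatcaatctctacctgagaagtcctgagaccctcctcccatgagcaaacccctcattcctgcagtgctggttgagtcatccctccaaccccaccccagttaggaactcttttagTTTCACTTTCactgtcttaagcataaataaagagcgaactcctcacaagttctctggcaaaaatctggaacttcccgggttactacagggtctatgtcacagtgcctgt
Gbp5, chr3:142496684-142496983, plus strand: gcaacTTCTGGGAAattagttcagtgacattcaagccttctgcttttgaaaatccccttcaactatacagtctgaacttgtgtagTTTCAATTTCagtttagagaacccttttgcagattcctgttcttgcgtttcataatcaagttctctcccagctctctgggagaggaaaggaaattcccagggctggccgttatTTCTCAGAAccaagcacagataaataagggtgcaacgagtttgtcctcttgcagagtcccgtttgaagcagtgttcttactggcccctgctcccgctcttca
Tgtp2, chr11:49064163-49064462, minus strand: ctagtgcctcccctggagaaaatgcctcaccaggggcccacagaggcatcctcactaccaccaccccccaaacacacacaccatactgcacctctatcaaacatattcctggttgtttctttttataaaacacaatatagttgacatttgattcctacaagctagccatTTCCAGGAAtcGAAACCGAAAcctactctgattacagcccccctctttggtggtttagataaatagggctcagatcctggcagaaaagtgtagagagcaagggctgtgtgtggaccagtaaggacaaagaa

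Of the 19 genes tested, 11 had a window, and 9 of these held GAAANNGAAA, including 6 of the 6 that were called, against 3.44% of all 32851 windows. The looser TTCNNNGAA stood in 6 of the 11 and in 8.30% of all windows. A match is a description of the letters and not a measured site.

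Gbp2, a guanylate-binding protein, read −1.60 and −1.34 in db/db + vehicle and 1.25 and 2.07 in WT (difference −3.13, SE 0.37, adjusted p = 0.00108). Gbp5, which also takes part in inflammasome assembly, read −2.88 and −2.96 against −1.32 and −0.06 (difference −2.24, SE 0.47, adjusted p = 0.0142). Gbp4 differed by −3.01 (adjusted p = 0.0177). For these genes both db/db + vehicle arrays were below both WT arrays, and WT replicate 2 was the higher WT array. Gbp8 was not well above background in db/db + vehicle and was at least 6.58-fold lower there (adjusted p = 0.00251). The T cell-specific GTPase gene Tgtp2 differed by −2.24 (adjusted p = 0.0475) and by −1.70, no longer called, without WT replicate 2. It has a near-identical neighbouring copy, so that its probe may read both. The differences of untreated db/db wounds from WT were −3.29 in Gbp2, −2.61 in Gbp4 and −2.54 in Gbp5, and the oil-treated wounds differed from untreated db/db wounds by 0.16, −0.40 and 0.30.

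The interferon gamma gene itself, Ifng, read −7.51 and −6.68 against −4.24 and −4.07, and was well above background on 1 of the 2 db/db + vehicle arrays. It was called (difference −2.94, SE 0.88) but not after adjustment (adjusted p = 0.0546). Cxcl9, a T cell attractant induced by interferon gamma, read −3.19 and −2.31 against −0.02 and 0.48 (difference −2.99, SE 0.88, adjusted p = 0.051). H2-Aa, a chain of the class II molecule that presents antigen, read −2.10 and −1.57 against 0.17 and 0.76 (difference −2.30, SE 0.40, adjusted p = 0.00606). The direction was the same in all 3, with no overlap of the groups. The class Ib gene H2-Q1 went the other way and was at least 8.96-fold higher in db/db + vehicle, since it was not well above background in WT.

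Of 36 antiviral genes induced by type I interferon, 4 were called lower and 1 higher, with a median of −0.04 that changed sign with single arrays. These shares were close to those of all probes, 10.8% called lower and 2.54% higher. The lower ones numbered 1 without WT replicate 2 (median 0.04) and 7 without db/db + vehicle replicate 1 (median −0.26), and the median was 0.11 without db/db + vehicle replicate 2 and −0.16 without WT replicate 1. Bst2, which tethers budding virus, was lower by 1.15 on the log2 scale (difference −1.15, adjusted p = 0.0454), and by −0.97, no longer called, with slide as a fixed block. Oas2, a sensor of double-stranded RNA, differed by −1.61 (adjusted p = 0.0414) and Stat2, the signal carrier of type I interferon, by −1.19 (adjusted p = 0.0205), and without WT replicate 2 neither was called (−1.04 and −0.89). Ifit3, an inhibitor of viral translation, read −0.03 and −0.62 against 0.24 and 0.15 and was not called (adjusted p = 0.49). The 1 gene called higher was Xaf1, a promoter of cell death, through a probe at 1.21 and 0.77 against −5.26 and −5.09 (difference 6.16, adjusted p = 9.13e-06), while a second Xaf1 probe differed by −1.66 and was called lower.

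Among lymphocyte genes the calls were not far from the 10.8% of all probes that were called lower. Of 20 T cell genes, 3 were called lower and 0 higher (6 and 1 without WT replicate 1), with a median of −0.36 (−0.16 without WT replicate 2, −0.17 without db/db + vehicle replicate 2 and −0.70 without WT replicate 1), and their mean level was −2.68 and −2.77 against −2.41 and −2.14. Cd28, the co-stimulatory receptor of T cells, read −4.43 and −4.16 against −1.24 and −2.74 (difference −2.30, SE 0.56, adjusted p = 0.0254). Cd8a, the co-receptor of cytotoxic T cells, was not well above background in db/db + vehicle and was at least 1.92-fold lower (adjusted p = 0.0162). Its fitted difference of −1.90 was −1.11 without WT replicate 2 and, no longer called, −0.70 with normexp background correction. Klrd1, the CD94 chain of receptors on natural killer cells, read −6.57 and −5.003 against −3.26 and −3.14 (difference −2.58, SE 0.54, adjusted p = 0.0139). Of 11 genes of natural killer and cytotoxic cells, 2 were called lower and 1 higher, the latter Gzme. The numbers were 1 lower and 2 higher without db/db + vehicle replicate 1, 3 and 1 without db/db + vehicle replicate 2, and 1 and 1 without either WT replicate. Of 12 genes of B and plasma cells 0 were called in either direction. The part of T cells and natural killer cells in the lower genes induced by interferon gamma was not tested.

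In the epidermis, small proline-rich proteins of the cornified envelope were higher, while keratins, barrier genes and cell cycle genes were rarely called. Of 17 wound cornified genes, 8 were called higher, against 2.54% of all probes, and 0 lower, with a median of 1.94. Only 3 of the 8 held after adjustment, and 0 did with slide as a fixed block. All 8 are Sprr2 genes. The number of calls was 2 without WT replicate 2, 3 without db/db + vehicle replicate 1, 5 without db/db + vehicle replicate 2 and 3 with slide as a fixed block, while the median stayed between 1.17 and 2.61 in these fits and without each of the other arrays. Promoters of 2 of the called genes are printed with TGAGTCA, the letters of the AP-1 element that drives cornified envelope genes, in capitals on either strand. They come from the same RefSeq build and cover the same span.
Sprr2b, chr3:92316455-92316754, plus strand: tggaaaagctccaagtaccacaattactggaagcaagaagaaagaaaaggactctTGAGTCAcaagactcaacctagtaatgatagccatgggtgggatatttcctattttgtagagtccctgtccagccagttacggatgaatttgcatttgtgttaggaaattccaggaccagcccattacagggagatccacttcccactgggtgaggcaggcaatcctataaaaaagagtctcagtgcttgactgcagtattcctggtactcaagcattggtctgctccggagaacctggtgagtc
Sprr2e, chr3:92351893-92352192, plus strand: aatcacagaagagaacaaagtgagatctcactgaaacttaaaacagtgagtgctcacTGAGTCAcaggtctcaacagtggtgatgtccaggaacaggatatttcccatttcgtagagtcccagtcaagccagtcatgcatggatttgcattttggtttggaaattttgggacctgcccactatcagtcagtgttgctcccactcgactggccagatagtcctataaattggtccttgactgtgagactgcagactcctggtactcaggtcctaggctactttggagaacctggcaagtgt

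The letters stood in 8 of the 15 listed genes with a window and in 6 of the 6 called genes with one, against 5.20% of all windows. Sprr2b read 0.00 and −0.50 in db/db + vehicle and −2.24 and −3.67 in WT (difference 2.71, SE 0.72, adjusted p = 0.0361). Sprr2e read 5.74 and 5.28 against 3.66 and 2.43 (difference 2.47, SE 0.67, adjusted p = 0.0397). Sprr2f read 5.01 and 4.13 against 2.30 and 0.08 (difference 3.38, SE 0.95, adjusted p = 0.0434), and without WT replicate 2 its difference was 2.27 and not called. In each of the 3 the groups did not overlap. Sprr2 genes lie in a cluster of close copies, so that their probes may read each other's transcripts. Untreated db/db wounds differed from WT by −0.64 in Sprr2b, 0.52 in Sprr2e and 1.47 in Sprr2f. The oil-treated wounds differed from the untreated db/db wounds by 3.34, 1.95 and 1.92 (adjusted p = 0.0917, 0.193 and 0.323).

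Of 43 genes of the granular layer and barrier 0 were called higher and 1 lower, with a median of 0.10 that was 1.15 without WT replicate 1 and −0.96 without WT replicate 2, and of 4 wound-activated keratins 0 were called. Krt16, a keratin of migrating epidermis, read 7.56 and 7.48 against 7.64 and 8.01 (difference −0.30, adjusted p = 0.607), and the sign of this small difference turned with quantile normalization. Of 34 genes of cell cycle and DNA replication 0 were called, with a median of 0.27 (0.11 without WT replicate 1), and 1 was called higher without WT replicate 2 or without db/db + vehicle replicate 2. Mki67, the marker of dividing cells, read 2.83 and 2.92 against 2.52 and 2.79 (adjusted p = 0.63). Defb3, a beta-defensin of inflamed epithelium, read 1.31 and 1.23 against −2.64 and −2.87 (difference 4.02, SE 0.77, adjusted p = 0.00919). The means of its groups were 16.3-fold apart, while untreated db/db wounds differed from WT by −0.39. Of 22 antimicrobial and acute phase genes, 2 were called higher, Defb3 among them, and 0 lower, against 2.54% and 10.8% of all probes.

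Most calls among hair follicle genes were lower ones, at a share not far from that of all probes. Lgr5, the marker of hair follicle stem cells, read −2.03 and −1.98 against 0.50 and 0.93 (difference −2.72, SE 0.29, adjusted p = 0.000725). Hoxc13, a transcription factor of hair and nail, differed by −1.68 (adjusted p = 0.0164). These 2 were the only ones that held after adjustment among 30 hair keratin and follicle genes tested, of which 5 were called lower and 1 higher (2 and 0 without db/db + vehicle replicate 1), where 10.8% of all probes were called lower. Epgn, the EGF receptor ligand epigen, read −0.92 and −1.06 against 1.98 and 0.87 (difference −2.42, SE 0.65, adjusted p = 0.0383).

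Skint genes, which code for immunoglobulin-like proteins of keratinocytes and thymic epithelium and of which the founding member selects dendritic epidermal T cells, held some of the largest differences. Of 10 tested, 5 were called lower, against 10.8% of all probes, and 0 higher. The median was −1.51, and it was −0.51 without WT replicate 1 and −2.52 without WT replicate 2. Skint3 read 2.37 and −0.08 in WT and was not well above background in db/db + vehicle, at least 379-fold lower (adjusted p = 5.44e-05). Skint11 read −2.27 and −4.35 in WT and was at least 17.3-fold lower by the same measure. Skint4 read 0.17 and −1.66 in WT and −7.17 and −7.38 in db/db + vehicle, where it was well above background on 1 array (difference −6.53, SE 0.54, adjusted p = 0.000187). Skint8, measured on all 4 arrays, read −6.27 and −6.47 against −2.28 and −3.13 (difference −3.66, SE 0.61, adjusted p = 0.00514). WT replicate 1 was the higher WT array in all 4, and no db/db + vehicle array reached either WT array. The fifth called gene was Skint6 at −1.59, which did not hold after adjustment, and the other 5 tested were not called. Untreated db/db wounds differed from WT by −10.54 in Skint3 and −4.81 in Skint8. Of 4 genes of dendritic epidermal T cells that could be tested 0 were called, with a median of −0.76.

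The major urinary proteins, pheromone-carrying lipocalins made mostly by liver and some glands, were lower as a list. All 10 Mup genes that could be tested, of 21 listed, were lower, with a median of −6.53, and 10 were called in every fit that was run except with the stricter filter on dim probes, where 9 could be tested and 9 were called. Mup20 read −4.65 and −2.98 against 2.94 and 3.32 (difference −6.94, SE 0.73, adjusted p = 0.000668), and its other probe, also called lower, differed by −3.67. Mup19 read −1.69 and −0.22 against 5.56 and 5.88 (difference −6.68, SE 0.68, adjusted p = 0.000587). The other 6 that the rule named, Mup2, Mup3, Mup4, Mup5, Mup17 and Mup18, differed by −6.73 to −6.06. Both WT arrays were close together in these genes and db/db + vehicle replicate 1 was lower than replicate 2. The genes are near-identical copies, and a probe may read several. Cyp2e1, a cytochrome of liver and fat, was also lower, by −5.33 (SE 1.08, adjusted p = 0.0123), at −3.74 and −2.14 against 2.52 and 2.26. In untreated db/db wounds Mup20 differed from WT by −7.09 and Cyp2e1 by −3.97.

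Several further genes were far apart between the groups, and 2 of the Naip family were well above background only in db/db + vehicle. Naip6, of the family that senses flagellin and bacterial needle proteins, was not well above background in WT and was at least 44.8-fold higher in db/db + vehicle (adjusted p = 0.00328), and Naip1 was at least 3.07-fold higher by the same measure (adjusted p = 0.0131), a call that was lost with normexp background correction. Nlrp1b, the sensor of anthrax lethal factor, read −7.00 and −7.18 against −3.02 and −1.85 (difference −4.65, SE 0.77, adjusted p = 0.00482). With normexp background correction this difference was −2.68. The other Nlrp1b probe differed by −3.09 and was also called lower. Syt10, a calcium sensor of vesicle release, read 2.81 and 2.80 against −6.30 and −5.51, a 419-fold difference (adjusted p = 0.00117). Fam205a2 was lower on all 4 of its probes, by −4.37 to −2.44. In these genes untreated db/db wounds differed from WT by 7.77 in Naip6, −4.87 in Nlrp1b, 7.93 in Syt10 and −4.25 in Fam205a2.

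For some of the most extreme genes a second probe of the same gene told another story. A Thumpd1 probe, for a tRNA acetylation factor, read 1.04 and 0.95 in WT and had a bound of at least 342-fold lower for db/db + vehicle, while the other Thumpd1 probe differed by 0.21. A probe of the Mediator subunit gene Med8 was at least 41.4-fold lower, while its other probe differed by 0.39. The scramblase gene Plscr3 differed by −4.31 through 1 probe and by −0.02 through the other. Of the 4 probes of the ribosomal gene Rpsa, 1 was at least 20.4-fold lower, and no other was called, with differences of up to 0.62. Slc12a5, a potassium chloride cotransporter, was at least 14.5-fold higher through 1 probe and differed by −0.40 through another. These pairs show unequal probes within a gene, and no level of the gene is drawn from them. Tceanc2 was at least 15.1-fold lower and Col25a1, a membrane collagen, at least 23.6-fold lower, with all their probes in the same direction. Lepr itself, the gene mutated in db/db mice, read 1.55 and 1.93 against 1.84 and 3.40 through the probe with the highest mean and was not called (difference −0.88, SE 0.41, adjusted p = 0.176), while 2 other probes were called lower, the larger difference being −2.40. Which transcripts of Lepr these probes read is not known here.

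**Figure D3:**
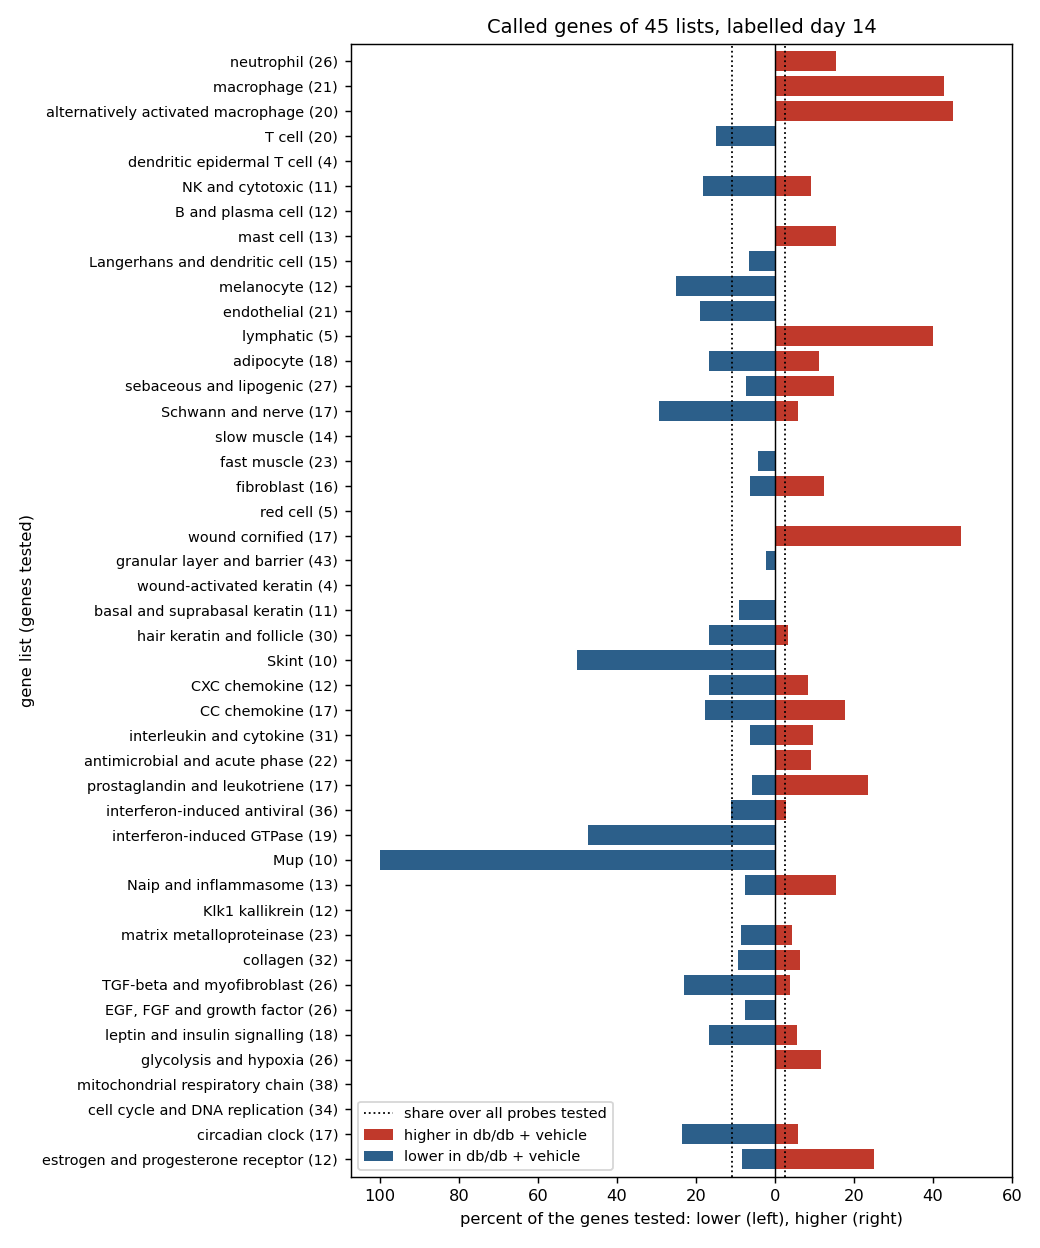
Percent of the genes tested in each of 45 lists that were called higher (red, to the right) or lower (blue, to the left) in db/db + vehicle than in WT on labelled day 14, with the number tested in brackets and dotted lines at the shares over all probes, 2.54% higher and 10.8% lower. The macrophage, alternatively activated macrophage and wound cornified lists reach farthest to the right among lists of over 10 genes, and Mup, Skint and interferon-induced GTPases farthest to the left.

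Some vessel and contractile genes were lower, in a comparison where 10.8% of all probes tested were called lower. Of 21 endothelial genes, 4 were called lower and 0 higher, with a median of −0.56. Without WT replicate 2, 1 was called and the median was −0.29, and without WT replicate 1, 7 were called. Erg, a transcription factor of endothelial identity, read −4.52 and −4.57 against −3.29 and −2.78 (difference −1.51, SE 0.23, adjusted p = 0.00307). Vwf, von Willebrand factor, differed by −1.38 (adjusted p = 0.0191) and Robo4, a guidance receptor of vessels, by −1.09 (adjusted p = 0.0172), and both fell short of a 2-fold difference without WT replicate 2 (−0.97 and −0.74). Pecam1, the CD31 antigen used to stain vessels, read −1.07 and −1.31 against −0.95 and −0.64 and was not called (difference −0.40, SE 0.24, adjusted p = 0.278). Of 26 genes of TGF-beta signalling and myofibroblasts, 6 were called lower and 1 higher, the latter Spp1, with a median of −0.53. Without WT replicate 1 the median was −0.18 and 3 were called higher. Tgfb3, the isoform linked with low scarring, read 0.58 and 0.43 against 2.15 and 1.96 (difference −1.55, SE 0.32, adjusted p = 0.0137). Tagln, the smooth muscle protein transgelin, read 2.87 and 3.08 against 4.04 and 4.70 (difference −1.40, SE 0.38, adjusted p = 0.0403). For Erg, Tgfb3 and Tagln no array of a group reached the other group.

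Matrix genes were called lower at about the share of all probes, 10.8%. Of 32 collagens and collagen-modifying enzymes, 2 were called higher and 3 lower (2 and 1 without db/db + vehicle replicate 2), with a median of −0.14 (−0.30 without db/db + vehicle replicate 1, −0.04 without db/db + vehicle replicate 2, −0.23 without WT replicate 1 and −0.03 without WT replicate 2), and Col1a1 was not called (difference −0.69, adjusted p = 0.143). Plod2, which hydroxylates collagen telopeptides for stable crosslinks, was higher by 1.37 (adjusted p = 0.0299), and Col15a1, a basement membrane collagen, differed by −1.72 (adjusted p = 0.0321) through the probe with the highest mean and was not called by its other probes. Of 23 matrix metalloproteinases and inhibitors, 1 was called higher and 2 lower (5 and 2 without WT replicate 1). Mmp11, stromelysin 3 of stromal fibroblasts, read 1.31 and 1.28 against 3.03 and 3.62 (difference −2.04, SE 0.51, adjusted p = 0.0283). Mmp19, a protease of macrophages and vessels, read 0.85 and 0.08 against −1.11 and −1.57 (difference 1.81, SE 0.37, adjusted p = 0.013). Both Mmp genes kept their groups apart. Of 16 fibroblast genes, 2 were called higher and 1 lower, with a median of 0.15, and without WT replicate 2 the median was 0.06 and 0 were called. Without WT replicate 1 the numbers were 4 and 1, without db/db + vehicle replicate 1 they were 1 and 0 with a median of 0.24, and without db/db + vehicle replicate 2 they were 2 and 0 with a median of 0.06. Kera, a small proteoglycan known from cornea, was not well above background in db/db + vehicle and was lower there, at least 15.7-fold.

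Fat genes were split, with 2 of 18 called higher and 3 lower (1 and 2 without WT replicate 2). Over all probes, 2.54% were called higher and 10.8% lower. The median of 0.21 for the fat genes had no stable direction. It was 0.89 without db/db + vehicle replicate 1, −0.44 without db/db + vehicle replicate 2, 0.50 without WT replicate 1 and −0.07 without WT replicate 2. Lpl, the lipase of capillary walls that macrophages and fat both make, read 4.12 and 4.71 against 2.38 and 2.04 (difference 2.21, SE 0.32, adjusted p = 0.00278). Adrb3, the adrenergic receptor of adipocytes, read −4.72 and −3.90 against −1.16 and −1.15 (difference −3.16, SE 0.45, adjusted p = 0.00251). Cfd, the adipokine adipsin, read 0.68 and 3.28 against 5.98 and 5.66, a difference of −3.84 (SE 0.92, adjusted p = 0.0244) that was −2.54 without db/db + vehicle replicate 1. Lep, leptin itself, read −2.74 and −0.21 against −3.35 and −4.73 (difference 2.56, SE 0.87, adjusted p = 0.0805), and the call was lost without db/db + vehicle replicate 2 (1.30) and without WT replicate 2 (1.87). The mean level of the adipocyte list was 0.76 and 2.18 in db/db + vehicle and 1.87 and 1.39 in WT, so that the db/db + vehicle arrays lay on both sides of the WT arrays, and its part in these values was not tested. The alcohol dehydrogenase gene Adh6a read 1.60 and 1.57 against −0.75 and −4.41, and its difference of 4.16 (adjusted p = 0.0366) was 2.33 without WT replicate 2.

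Genes of glycolysis and hypoxia were called higher in 3 of 26 cases and lower in 0, with a median of 0.44, and 0 were called without WT replicate 2 and 7 without WT replicate 1. Car9, the carbonic anhydrase induced by low oxygen, was higher by 1.37 (adjusted p = 0.0489) and, no longer called, by 1.03 without WT replicate 2. Of 38 genes of the mitochondrial respiratory chain 0 were called, with a median of 0.18, and their mean levels of 3.88 and 4.01 against 3.83 and 3.92 were close on all arrays. The shares over all probes were 2.54% called higher and 10.8% called lower. Of 18 genes of leptin and insulin signalling, 1 was called higher and 3 lower, 0 of the calls held after adjustment, and 0 were called without WT replicate 2 and 2 without db/db + vehicle replicate 1.

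Of 17 clock genes, 4 were called lower and 1 higher on labelled day 14, and 0 were called on labelled day 7. Over all probes of labelled day 14, 10.8% were called lower and 2.54% higher. Arntl, the activator BMAL1, read 0.29 and 0.16 in db/db + vehicle and −0.78 and −1.60 in WT (difference 1.41, SE 0.25, adjusted p = 0.00681). The 4 lower genes included factors of clock output. Dbp, a transcription factor of clock output, read 1.496 and 1.63 against 3.23 and 3.04 (difference −1.57, SE 0.39, adjusted p = 0.0272). Per3, a period protein of the repressor arm, read −5.98 and −6.21 against −4.39 and −3.95 (difference −1.92, SE 0.34, adjusted p = 0.00702). Tef, a relative of Dbp, differed by −1.21 (adjusted p = 0.0208) and by −0.89, no longer called, without WT replicate 2. In each of these genes both db/db + vehicle arrays lay on 1 side of both WT arrays. In untreated db/db wounds of labelled day 14, Arntl differed from WT by 1.01, Dbp by −1.21 and Per3 by −2.03. The hour at which each mouse was killed is not given in the sources used here, and its part in these differences was not tested. The E-box CACGTG stood in 5 of the 14 listed genes with a promoter window, in only 1 of the 5 called genes with one, and in 7.15% of all windows. The D-box TTATGTAA stood in 1 of 14, Per3, and in 0.938% of all windows.

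Pgr and Greb1, targets of the estrogen receptor, were high in the oil-treated wounds, which had received no hormone according to the labels. Pgr, the progesterone receptor, read −2.45 and −1.53 in db/db + vehicle. It was not well above background in WT, which puts db/db + vehicle at least 41.6-fold higher. The fitted difference, which uses those dim WT signals, was 7.52 (limma, adjusted p = 9.01e-06). Greb1, a cofactor and early target of the estrogen receptor, read 0.50 and 1.87 against −1.85 and −1.87 (difference 3.04, SE 0.53, adjusted p = 0.00613). A second Greb1 probe showed smaller distances in the same direction. It read −0.88 and 0.27 in db/db + vehicle, −2.34 and −2.32 in WT and −3.13 and −2.83 in untreated db/db. Both db/db + vehicle arrays exceeded both WT arrays in each gene. Against the untreated db/db wounds of labelled day 14 the oil-treated wounds were higher by 7.41 in Pgr (adjusted p = 4.98e-05). The Pgr probe was near background in untreated db/db as well, at −9.66 and −9.14, so that the size of this difference is uncertain. With normexp background correction the Pgr difference from WT was 2.76. In Greb1, through its first probe, the oil-treated wounds were higher than untreated db/db by 5.44 (adjusted p = 0.00932), and untreated db/db differed from WT by −2.40. The arrays of db/db + estrogen read −1.31 and −0.63 in Pgr and 2.01 and 2.33 in Greb1 on labelled day 14. On labelled day 7 Pgr read −3.76 and −4.11 in db/db + vehicle and −1.40 and −1.09 in db/db + estrogen. The oil-treated wounds thus lay between the untreated and the estrogen-treated db/db wounds on both labelled days in Pgr.

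Of 12 genes of the estrogen and progesterone receptor list, 3 were called higher and 1 lower, against 2.54% and 10.8% of all probes. The list as a whole was split, with 6 of the 12 differences above 0. Its median was 0.17, and 0.74 without WT replicate 1. The third of the higher genes was Tff1, trefoil factor 1, an estrogen-induced gene of epithelium, at −3.82 and −5.27 against −6.60 and −6.79 (difference 2.15, SE 0.58, adjusted p = 0.0382). It was 1.43 without db/db + vehicle replicate 1 and was not called with normexp background correction (0.55). Hsd17b1, which makes estradiol from estrone, was lower and not well above background in db/db + vehicle, at least 1.64-fold lower (adjusted p = 0.0285). That call was lost with normexp background correction (−0.62) and with quantile normalization (−0.89). The receptors themselves were not called. Esr1 read −2.59 and −1.72 against −1.46 and −2.12 (difference −0.37, adjusted p = 0.511) and Esr2 read 0.79 and 0.20 against 0.78 and 1.78 (difference −0.78, adjusted p = 0.222). The palindrome GGTCANNNTGACC stood in 0 of the 8 listed genes with a promoter window and in 0.0700% of all windows, which says only that these letters are not in those windows.

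Other genes were high in db/db + vehicle and low in both untreated groups of labelled day 14. They were also high in db/db + estrogen, given the same oil. Its differences from WT were 4.36 in Ptpn5, 5.13 in Adamts19, 3.27 in Marco, 2.86 in Defb3 and 6.46 in Uts2. On labelled day 7 the db/db + estrogen arrays read −1.96 and −2.15 in Marco and −9.28 and −9.56 in Defb3, but 0.13 and 0.17 in Ptpn5. In Marco the untreated db/db arrays of labelled day 7 read −0.09 and 2.32, and the db/db + vehicle arrays 2.60 and 2.18. There 1 untreated array was thus as high as the oil-treated ones. The labelled day 7 difference of db/db + vehicle from WT was 0.86 in Adamts19, not called. It was called in Ptpn5 (2.50), Marco (3.64) and Defb3 (3.70). Ptpn5, a tyrosine phosphatase best known from neurons, read −0.34 and 0.53 against −3.51 and −3.77 in WT (difference 3.74, SE 0.35, adjusted p = 0.000391) and was higher by 4.59 than in untreated db/db wounds (adjusted p = 0.00209). Adamts19, a secreted metalloproteinase, was not well above background in WT and was at least 21.8-fold higher (adjusted p = 0.00352), and it was higher by 4.65 than in untreated db/db wounds (adjusted p = 0.0440). Marco was higher by 4.31 (adjusted p = 0.0440) and Defb3 by 4.42 (adjusted p = 0.0580) than in untreated db/db wounds. Uts2, the vasoactive peptide urotensin 2, was at least 4.88-fold higher than in WT, with unequal arrays of −6.98 and −3.19, and its difference of 4.47 was 2.58 without db/db + vehicle replicate 2 and lost its call with normexp background correction. Over all probes, 2182 of 29043 were called between the oil-treated and the untreated db/db wounds (7.51%) and 56 held after adjustment (0.193%).

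**Figure D4:**
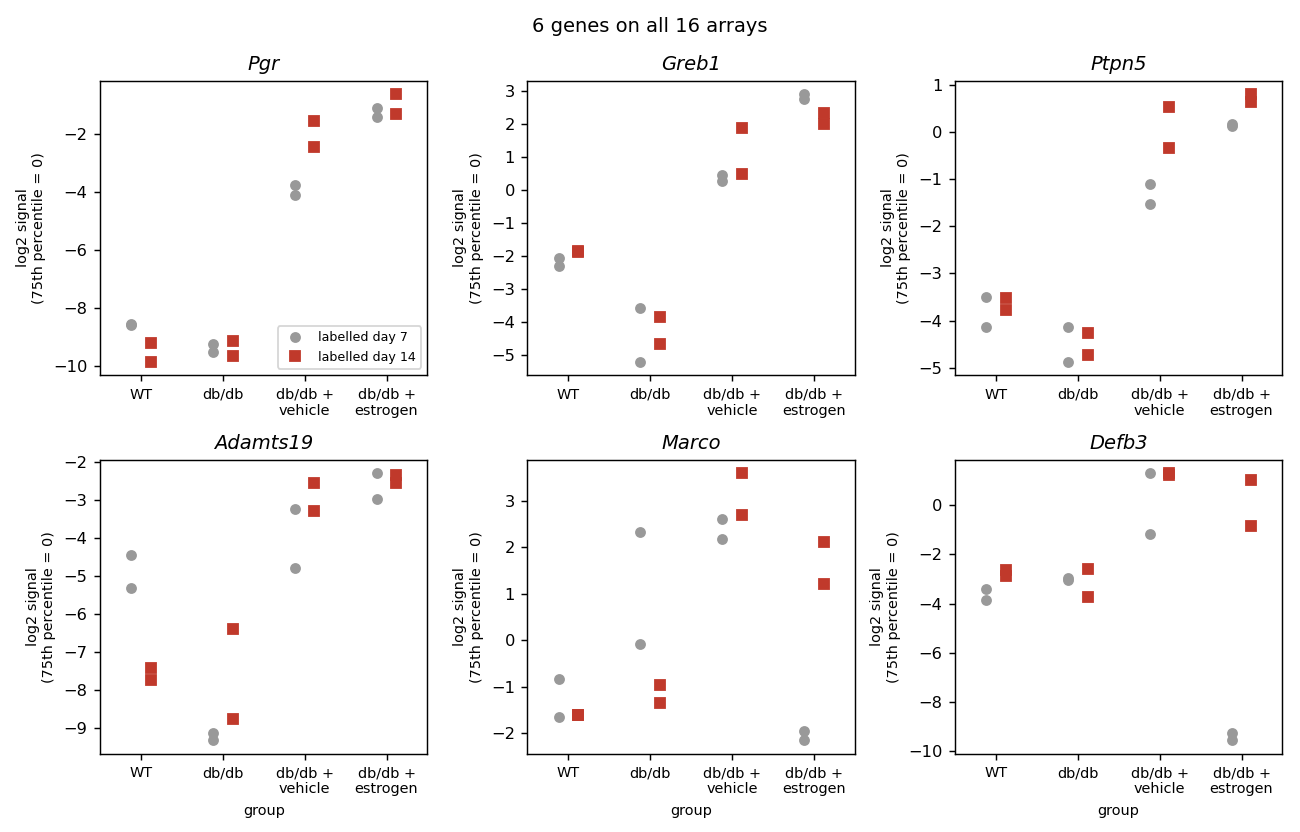
Log2 signal of 6 genes on all 16 arrays, by group (x axis) and labelled day (grey circles for day 7, red squares for day 14). In Pgr, Greb1 and Ptpn5 the db/db + vehicle arrays lie with or below the db/db + estrogen arrays and above WT and untreated db/db, while the db/db + estrogen arrays of labelled day 14 lie above those of labelled day 7 in Marco and Defb3.

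Madcam1, an adhesion molecule for homing lymphocytes, read −0.57 and −0.62 against −4.80 and −3.97 (difference 3.79, SE 0.56, adjusted p = 0.00292). Its other probe differed by 1.11 and was also called higher. The choline transporter gene Slc5a7, known from cholinergic nerve endings, was at least 25.4-fold higher, since it was not well above background in WT, with −3.96 and −1.44 in db/db + vehicle. The next 3 lists stand beside shares over all probes of 2.54% called higher and 10.8% called lower. Of 17 Schwann cell and nerve genes, 1 was called higher and 5 lower, with a median of −0.54 (−0.22 without WT replicate 2), but without db/db + vehicle replicate 1 the median was −0.22 and the numbers were 1 and 1, as they were with slide as a fixed block. Of 12 melanocyte genes, 3 were called lower and 0 higher, with a median of −1.12 (−0.50, with 2 called, without WT replicate 1), among them Sox10, the transcription factor of pigment and glial cells (difference −1.88, SE 0.38, adjusted p = 0.0119). Of 23 fast muscle genes, 1 was called lower, with a median of −1.35 that was −0.71 without WT replicate 2. That gene was Neb, nebulin, at 0.51 and 0.89 against 2.33 and 3.43 (difference −2.18, adjusted p = 0.138), and it lost its call without either db/db + vehicle replicate, without WT replicate 2 and, at −1.26, in the fit that held slide fixed. The mean level of the fast muscle list was 2.54 and 2.94 in db/db + vehicle and 3.56 and 4.77 in WT, so that WT replicate 2 held the most muscle RNA. Ccl28, a mucosal chemokine, was lower by 2.39 on the log2 scale (difference −2.39, SE 0.50, adjusted p = 0.0144) and was well above background on 1 of the 2 db/db + vehicle arrays.

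The difference between db/db + vehicle and WT was itself compared between the labelled days. Of 30981 probes tested in this way, 495 passed after adjustment (1.6%), 94 of them shifted upwards on labelled day 14 (0.303%) and 401 downwards (1.29%). The number rested on single arrays. On labelled day 14 it was 13 without WT replicate 2, 42 and 79 without db/db + vehicle replicates 1 and 2, and 1381 without WT replicate 1. On labelled day 7 it was 34 and 114 without db/db + vehicle replicates 1 and 2, and 963 without WT replicate 1. Since each labelled day was also a scan day of its own, day and scan cannot be told apart. Pgr differed from WT by 7.52 on labelled day 14 and by 4.63 on labelled day 7, an interaction of 2.89 (SE 0.50, adjusted p = 0.0302). Its WT arrays were near background on both labelled days, at −9.84 and −9.19 on labelled day 14 and −8.55 and −8.58 on labelled day 7. Part of the interaction in Pgr is thus a shift of signals near background. Per3 differed by −1.92 and 0.47, an interaction of −2.40 (SE 0.49, adjusted p = 0.0451). The Rpsa probe that disagreed with the other probes of its gene differed by −4.81 and −0.92, an interaction of −3.89 (SE 0.55, adjusted p = 0.0216). In a fit of only the arrays compared 0 probes passed after adjustment, and with slide as a fixed block 2 did, so that none of the 3 genes passed in the former and at least 1 failed in the latter. The other genes named here did not pass this test, which with 2 arrays a group does not show that they acted alike. In most of them the sign was the same on both labelled days, among them Syt10 (8.71 and 9.90), Mup20 (−6.94 and −8.19), Skint3 (−10.72 and −9.79), Clec10a (2.73 and 3.39) and Gbp2 (−3.13 and −3.26).

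**Figure D5:**
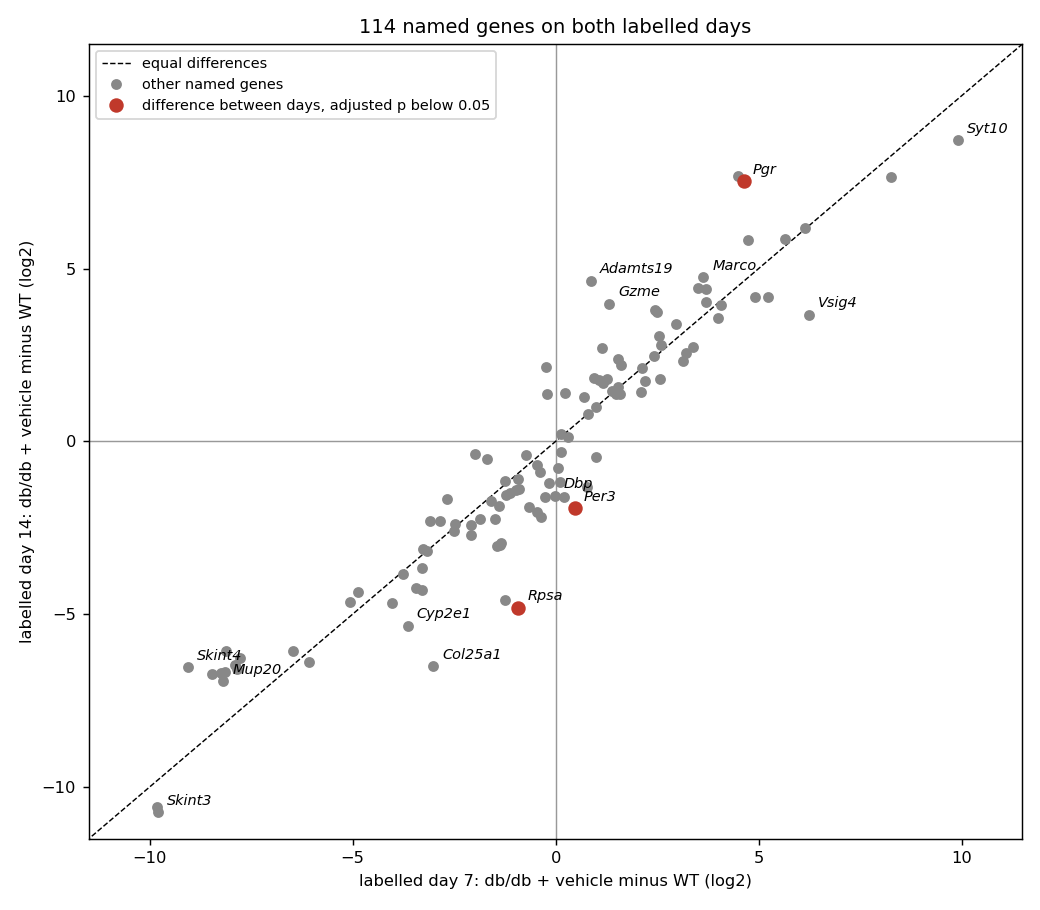
Difference between db/db + vehicle and WT (log2) on labelled day 7 (x axis) and labelled day 14 (y axis) for the 114 named genes with a value on both, with a dashed line of equal differences. The points in red, Pgr, Per3 and Rpsa, are those whose difference changed between the labelled days with an adjusted p below 0.05.

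The labelled sex was checked on the same arrays. Xist, the RNA of the inactive X chromosome, was well above background on 16 of 16 arrays, and of the Y-linked genes looked at only Ddx3y was well above background anywhere, on 1 of 16 arrays and on 0 of the 4 compared. Xist read −2.39 and −2.26 in db/db + vehicle and −0.91 and −0.52 in WT (difference −1.61, SE 0.27, adjusted p = 0.00534).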

How the data were processed

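RNA of wounds with the skin around them was read on 16 one-colour Agilent mouse arrays. The authors deposited scanner files with an intensity for each spot, from Feature Extraction 11.0.1.1, with background subtracted and spatial trends removed and no scaling between arrays. The files also give, as deposited, the median intensity of the spot and its local background, and other marks of quality. The authors also deposited a table with the ratio of each signal to the 75th percentile of its array, on a linear scale, which was used as an alternative. On every array, 99.4% or more of its probes equalled the scanner value with a tolerance of 0.1%.

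Spots marked as outliers were left out, spots of a probe were averaged, and the log2 signal was scaled by the 75th percentile over probes that are not controls. Control spots were dropped. Of 39429 probes, 27427 were named through a RefSeq table (69.6%), giving 20832 symbols, and the others entered the counts only. limma 3.58.1 in R 4.3.3 was fitted to 8 groups of 2 arrays, with 8 residual degrees of freedom, and was checked on simulated data. The fold threshold of 2 is that of the study, and the p threshold was 0.05. Where a probe was not well above background on either array of a group, the fold is a lower bound, taken against the lowest signal well above background on each array or the probe's own, whichever was higher.

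Genes were named by a rule: in each direction, the 12 largest differences that held after adjustment and the 8 largest lower bounds, up to 5 called genes of each direction and the first 3 measured genes of each of 45 lists, and Lepr, Xist and Y-linked genes. The 12 largest were sought only among probes whose groups did not overlap and that were well above background on every array compared. Their lack of overlap was thus fixed by the rule. A gene was read through its probe with the highest mean over 16 arrays. Only some genes under the rule are named, and list members, lists and names were chosen with earlier results of these data known. The depth of an array is not a count, and the number of arrays limits the precision. Groups came from the deposited sample records.

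The alternatives were normexp background correction (offset 50), quantile normalization, no filter or a stricter filter on dim probes, a floor on dim signals, the deposited ratio table, a fit restricted to the arrays being compared, a slide block, fixed or random (statmod 1.5.0), a replicate block, and leaving out each array.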

Additional observations from a re-analysis of the deposited data

Results flagged for a closer look

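The difference between db/db + vehicle and WT changed between the labelled days for 495 probes after adjustment in limma. Among the genes named in the report it changed by 2.89 on the log2 scale in Pgr, by −2.40 in Per3 and by −3.89 in the Rpsa probe that disagreed with the other probes of its gene. Labelled day and scan day were the same split, and their parts were not tested. The Pgr arrays of db/db + vehicle and WT did not overlap on either labelled day, and the WT arrays were near background on both.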

How the results depend on the processing

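Of the 103 named genes that were called, 84 kept direction and call under every alternative and 0 changed direction. Leaving out an array ended 11 calls, all 11 of them without WT replicate 2, and normexp ended 7. The 4083 calls were 2393 with normexp and 2660 to 6633 without single arrays, and the 2689 adjusted calls were 52 in a fit of only the 4 arrays compared, 1553 with slide as a fixed block and 1024 to 5035 without single arrays. The share of calls higher in db/db + vehicle, 19%, was 37.3% with quantile normalization, 20.6% with the stricter filter, 20.6% with only the arrays compared and 19.8% to 22.7% without single arrays. The median difference over all probes was −0.20 with normexp and 0.06 with quantile normalization. The 495 probes that changed between the labelled days were 75 with normexp, 247 with the stricter filter, 0 in limma with only the arrays compared (3576 at an unadjusted p below 0.05), 2 with slide as a fixed block and 13 to 1381 without single arrays. With the replicate block the number was 60, and the block left 4025 calls and 2206 adjusted calls in the main comparison. Replicates of the same number did not deviate together (r = 0.019 on labelled day 14 and −0.130 on labelled day 7), so the numbers were not taken as pairs. Among uncalled genes, Krt16 was 0.065 with quantile normalization, Krt14 was −0.13 and Esr1 was 0.028 with slide as a fixed block, and without single arrays Krt14 ran from −0.013 to 0.25 and Esr1 from −0.80 to 0.071. The causes were not tested. Signals near background limit the low genes, for which normexp shrank differences.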
